A study of Homo sapiens with 18 samples.

Results

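The matrix metalloproteinases MMP1, MMP2, MMP3, MMP9, MMP10, MMP13 and MMP14 and their inhibitors TIMP1, TIMP2 and TIMP3 were followed across the MCF10 breast cancer progression series, as 10 genes chosen by name out of 35933 genes with values. RNA was sequenced from 18 libraries in 6 groups of 3 (replicates a, b and c). MCF10A is a spontaneously immortalized, non-tumorigenic line of human breast epithelial cells, MCF10AT1 was made from it with a mutated HRas, and MCF10CA1h came from MCF10AT1 through serial xenografts in mice. For each line, the negative control carried a CRISPR/Cas9 construct with a control sgRNA, and the other group, labelled METTL3 knockdown, carried the same kind of construct with an sgRNA against exon 1 of METTL3, the catalytic subunit of the m6A RNA methyltransferase. All 6 groups were therefore transfected, sorted for mCherry, diluted to single cells and grown in the same medium. Each group was 1 CRISPR line, so the spread of its 3 libraries holds no difference between clones, and the effect of METTL3 cannot be told apart from a difference between 2 clones. Nothing says that the 3 libraries of a group came from separate cultures, so p-values measure only the spread between these libraries, which may be technical. Values are normalized counts, in which the authors divided each library's estimated counts by a size factor, and the number of reads behind a value is unknown.

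Matrix metalloproteinases are zinc-dependent enzymes, made as inactive proenzymes, that cut the proteins of the extracellular matrix and the cell surface. MMP1 and MMP13 are collagenases that cleave fibrillar collagen, MMP2 and MMP9 are gelatinases that degrade denatured collagen and basement membrane collagen, MMP3 and MMP10 are stromelysins of broad substrate range, and MMP14 is anchored in the cell membrane. The TIMPs bind the active site of these enzymes and block it. MMP14 together with TIMP2 also holds proMMP2 at the cell surface, where MMP14 activates it, so TIMP2 can serve activation as well as inhibition. In breast tumours most MMP2 is made by stromal cells, and a rise of MMP2 is commonly read as a mesenchymal trait.

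The 4 genes MMP10, MMP1, MMP3 and MMP13 lie in this order within 185.2 kb of chromosome 11 of hg38, all on the minus strand. MMP10 spans 102770502 to 102780628, MMP1 102789401 to 102798160, MMP3 102835801 to 102843609 and MMP13 102942995 to 102955732. The other members lie apart, with MMP2 on chromosome 16 (55389700 to 55506691), MMP9 on chromosome 20 (46008908 to 46016561), MMP14 on chromosome 14 (22836560 to 22849041), TIMP1 on chromosome X (47582408 to 47586789), TIMP2 on chromosome 17 (78852977 to 78925387) and TIMP3 on chromosome 22 (32801705 to 32863041). MMP14 and METTL3 are on the same chromosome, 1325.2 kb apart. The MMP3 and MMP10 transcripts share 125 stretches of 31 bases, which are 6.75% of those of MMP3 and 7.11% of those of MMP10, so the split of reads between this pair is uncertain. Exons of MMP1 and MMP3 overlap those of the pseudogene WTAPP1 on the other strand, and exons of MMP9 overlap SLC12A5-AS1 on the other strand. Exons of MMP2 overlap ENSG00000279030 on the same strand, and exons of TIMP2 overlap CEP295NL on the same strand and ENSG00000267601 on the other. The libraries were stranded, but whether strand was used in counting is not stated.

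Of the 4 members with a promoter entry in RefSeq (MMP10, MMP14, TIMP1 and TIMP3), 3 are shown. MMP10 was listed at 0 in the MCF10AT1 control, TIMP1 had the highest level of the family, and TIMP3 differed most between the MCF10A and MCF10AT1 controls among members above 0 in both. Each run is 300 bases of GRCh38.p14, from 250 bases before to 50 bases after the annotated start, on the gene's own strand. MMP10 is at chr11:102780579-102780878 on the minus strand, TIMP1 at chrX:47582186-47582485 on the plus strand and TIMP3 at chr22:32801455-32801754 on the plus strand. Capitals mark the AP-1 letters TGANTCA and the TATA box letters TATAAA in MMP10, and the AP-1-like letters TGAGTAA in TIMP1, and none of these was found in TIMP3.
MMP10: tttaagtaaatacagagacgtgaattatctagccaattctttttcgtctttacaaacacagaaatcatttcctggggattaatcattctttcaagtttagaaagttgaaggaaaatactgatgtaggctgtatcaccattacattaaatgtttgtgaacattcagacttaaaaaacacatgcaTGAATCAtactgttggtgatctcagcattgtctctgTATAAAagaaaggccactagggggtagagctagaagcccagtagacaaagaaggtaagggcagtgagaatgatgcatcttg
TIMP1: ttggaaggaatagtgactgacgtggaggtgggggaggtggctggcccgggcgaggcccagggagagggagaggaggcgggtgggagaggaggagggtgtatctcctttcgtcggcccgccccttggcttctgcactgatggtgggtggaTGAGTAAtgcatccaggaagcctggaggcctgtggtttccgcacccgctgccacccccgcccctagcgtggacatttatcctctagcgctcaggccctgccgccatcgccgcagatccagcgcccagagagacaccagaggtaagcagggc
TIMP3: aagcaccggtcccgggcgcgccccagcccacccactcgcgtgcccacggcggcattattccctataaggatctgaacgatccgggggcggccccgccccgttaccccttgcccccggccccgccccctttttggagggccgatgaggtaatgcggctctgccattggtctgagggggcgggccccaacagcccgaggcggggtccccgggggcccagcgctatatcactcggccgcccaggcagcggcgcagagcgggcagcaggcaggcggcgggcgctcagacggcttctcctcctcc
The MMP10 window held 36.3% G and C and 2 CpG dinucleotides, the TIMP1 window 65.0% and 16, and the TIMP3 window 72.7% and 31, where the median of 35116 promoters was 58.7% and 14. The AP-1 letters lay at bases -67 to -61 of MMP10 and the TATA letters at -31 to -26. The TGANTCA letters, which read the same on both strands, occurred in 7.71% of all promoters searched, and TATAAA on either strand in 11.5%. The TGAGTAA letters of TIMP1, at -101 to -95, were searched after the sequence had been seen and occurred in 2.57% of promoters. AGGAAG, the letters of a PEA3 or ETS site, followed them at -87 to -82, and were present in 33.6% of promoters. The GC box letters GGGCGG were found 5 times in TIMP3 and occurred in 45.0% of promoters. None of the motifs marked overlapped another. These are matches of letters, and binding was not measured.

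METTL3 RNA was 752, 686 and 459 normalized counts in the MCF10A negative control (replicates a, b and c, the order kept throughout) and 939, 981 and 510 in the labelled knockdown, and so not lower (log2 difference 0.33, adjusted p = 0.618, limma with Benjamini-Hochberg adjustment). In MCF10AT1 the difference was -0.17 (adjusted p = 0.707). MCF10CA1h alone had METTL3 past the threshold, at a log2 difference of -0.49 (adjusted p = 0.0234), and this call was lost without control replicate c or labelled knockdown replicate b (adjusted p up to 0.0906), without an intensity trend (0.0742) and in a joint fit of the 18 libraries (0.501). METTL3 RNA therefore did not check the labels of MCF10A and MCF10AT1, and directions given there are those between libraries as labelled. The authors reported lower METTL3 protein by Western blot in the knockdown lines of each cell line, and a smaller decrease of its mRNA by real-time PCR. They also reported lower m6A, a decrease that was not significant in MCF10A. Which of their knockdown lines was sequenced is not stated. Summed normalized counts ran from 21347352 to 31681834 per library, and replicates correlated at r from 0.884 to 0.989 on the log2 scale. The lowest of these was between MCF10AT1 control replicates b and c. Of 10 epithelial markers, none was at 0 in all 3 libraries of any group, and their summed level was between 102548 and 445126 in every group but the labelled knockdown of MCF10AT1, where it was 25978 to 55123. RAB25 was near 0 in MCF10CA1h too, at 3.85, 0 and 10.2 in its control and 0.77, 0 and 0 in its labelled knockdown.

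**Figure D1:**
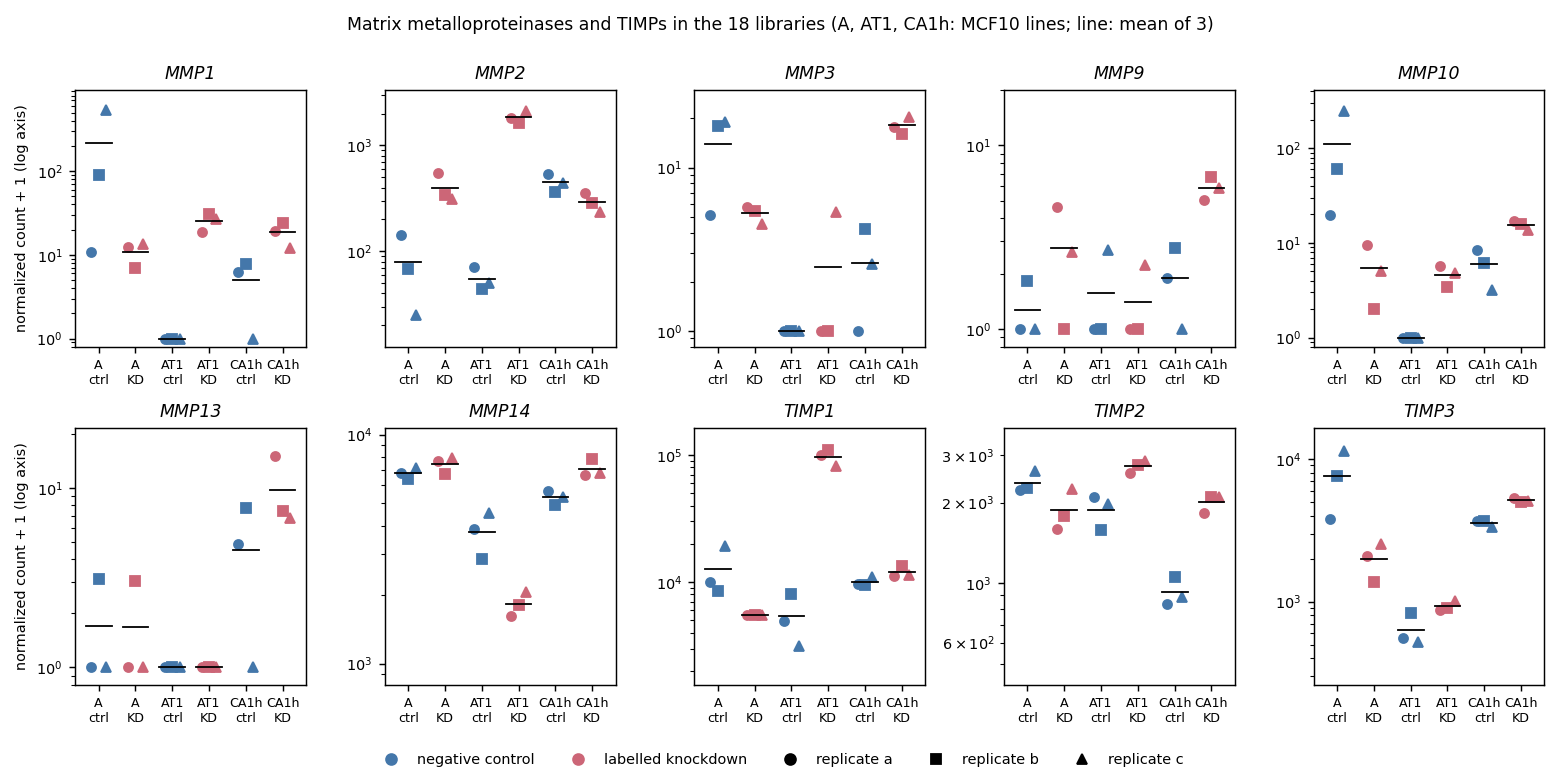
Normalized count plus 1 of each member on a log axis, with 1 point per library, the replicate letter as the symbol and the mean of 3 as a line. TIMP1 and MMP2 of the MCF10AT1 labelled knockdown stand above all other libraries, and MMP1, MMP3, MMP10 and MMP13 of the MCF10AT1 negative control lie at 0.

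Levels between genes were compared per kb of the canonical transcript. TIMP1 had the highest level per kb of the 10 members in all 6 groups, from 7019 ± 3275 (SD, n = 3) in the MCF10AT1 negative control to 125841 ± 18465 in the MCF10AT1 labelled knockdown. MMP14 came next in 5 groups, at 1017 ± 233 to 2004 ± 164 per kb, and its ranges lay below those of TIMP1 in each. That rank is by the mean, and in the MCF10A control the range of TIMP3 (822 to 2454 per kb) overlapped that of MMP14 (1734 to 1933). In the MCF10AT1 labelled knockdown, TIMP2 at 749 ± 38.1, MMP2 at 530 ± 70.2 and MMP14 at 493 ± 60.5 per kb followed TIMP1, and the ranges of MMP2 and MMP14 overlapped. MMP9 and MMP13 were near 0, with at most 5.74 normalized counts of MMP9 and 14.1 of MMP13 in any library.

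The largest changes were in MCF10AT1, where TIMP1 and MMP2 rose together and MMP14 fell. TIMP1, which inhibits most secreted MMPs, was at 4956, 8108 and 3129 normalized counts in the negative control and at 100526, 108717 and 81072 in the labelled knockdown. The lowest labelled knockdown library was thus far above the highest control. TIMP1 was 17.9-fold higher (log2 difference 4.26, SE 0.38, adjusted p = 2.99e-04). The gelatinase MMP2 was at 69.7, 43.4 and 49.0 in the negative control and at 1815, 1643 and 2130 in the labelled knockdown. Again the groups did not overlap, and MMP2 was 34.5-fold higher (log2 difference 5.10, SE 0.32, adjusted p = 5.31e-05). Both calls held with each of the 6 libraries left out, with log2 differences of 3.92 to 4.61 for TIMP1 and 4.96 to 5.30 for MMP2.

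MMP14, the membrane-bound activator of proMMP2, moved the other way in MCF10AT1. Its normalized counts were 3883, 2851 and 4561 in controls and 1615, 1802 and 2061 in the labelled knockdown, without overlap. MMP14 was 2.06-fold lower (log2 difference -1.02, SE 0.27, adjusted p = 0.0446), a call that was close to the threshold. It was lost without the filter (adjusted p = 0.0747), without an intensity trend (adjusted p = 0.0893), with equal sums per library (adjusted p = 0.0652) and in 5 of the 6 fits that left out a library, where the adjusted p was up to 0.187, the exception being the fit without control replicate b. With the replicate letter as a block the adjusted p was 0.0105, in a fit that called 24.5% of all genes. In this line the letters did not mark pairs cleanly.

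The collagenase MMP1 was listed at 0 in all 3 MCF10AT1 controls and at 17.9, 29.7 and 25.9 normalized counts in the labelled knockdown, so no fold is given (adjusted p = 0.00452). MMP1 passed the filter on low values there only through the labelled knockdown, the group in which it was high, and it fell under the filter without labelled knockdown replicate b or c. The neighbouring stromelysin MMP10 was also listed at 0 in the 3 controls and at 4.68, 2.43 and 3.79 in the labelled knockdown, under the filter. Its adjusted p without the filter was 0.0621. MMP3 was above 0 in 1 library, labelled knockdown replicate c, at 4.38, and MMP13 was at 0 in all 6.

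The inhibitors TIMP2 and TIMP3 did not pass the threshold in the fit of MCF10AT1 alone. TIMP2 was at 2090, 1583 and 1969 normalized counts in controls and at 2581, 2769 and 2853 in the labelled knockdown (log2 difference 0.55, SE 0.24, adjusted p = 0.190), and was called in the joint fit of the 18 libraries (adjusted p = 0.0171), which called 32.4% of all genes. TIMP3, which unlike the other two is bound to the extracellular matrix, was at 557, 827 and 523 and at 875, 901 and 1012 (log2 difference 0.58, SE 0.29, adjusted p = 0.236). For both the groups did not overlap. Leaving aside MMP1, which had to differ to pass the filter, 3 of the 5 other members tested were called in MCF10AT1, with TIMP1 and MMP2 higher and MMP14 lower, where 13.0% of all genes tested were called, 7.07% higher and 5.96% lower.

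Markers of other cell types moved with these changes in MCF10AT1. Of the 10 epithelial markers, 7 were called lower and none higher. Over all genes, 5.96% were called lower and 7.07% higher in this line. Among the 7 were RAB25, a small GTPase of epithelial cells (2037 to 4741 normalized counts in controls and 1.76 to 4.50 in the labelled knockdown), the splicing regulator ESRP1 and the adhesion protein CDH1. RAB25 and ESRP1 passed the filter only through the controls, where they were high. RAB25 was also near 0 in both groups of MCF10CA1h. Of 7 fibroblast or mesenchymal markers tested, 4 were called higher and none lower. Among them were fibronectin FN1 (65.1 to 81.9 in controls and 55947 to 134507 in the labelled knockdown), THY1 and collagen COL3A1. THY1 and COL3A1 passed the filter only through the labelled knockdown, where they were high. The other calls, FN1 and VIM, did not depend on the filter in this way. The epithelial markers summed to 102548 to 153418 in controls and to 25978 to 55123 in the labelled knockdown, and the fibroblast or mesenchymal markers to 3785 to 5132 and to 118103 to 206507. The remaining markers of this list were not called. COL1A2, LUM and PDGFRA were at or under 24.6 in the labelled knockdown and PDGFRB at or under 26.8. DCN was at 646, 429 and 976 there (538, 370 and 264 in controls), and COL1A1 at 60.7, 77.0 and 108. The 6 endothelial markers summed to 233 to 867 in controls and to 1777 to 2781 in the labelled knockdown. ACKR1 alone of them was called, listed at 0 in the 3 controls and at 1276 to 2137 in the labelled knockdown. It passed the filter only through the labelled knockdown. This gene was the closest to TIMP1 in pattern over the 18 libraries. PECAM1 had a log2 difference of 0.12 (adjusted p = 0.900), and VWF, CDH5, KDR and TEK were at or under 9.85 in all 6 libraries. The 4 blood markers in the table summed to 776 to 1524 and to 1972 to 2965, with none called and PTPRC at 0 throughout. In bulk RNA a change in the number of cells of a kind cannot be told apart from a change of RNA per cell, and the part of these markers in the MMP and TIMP differences was not tested.

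**Figure D2:**
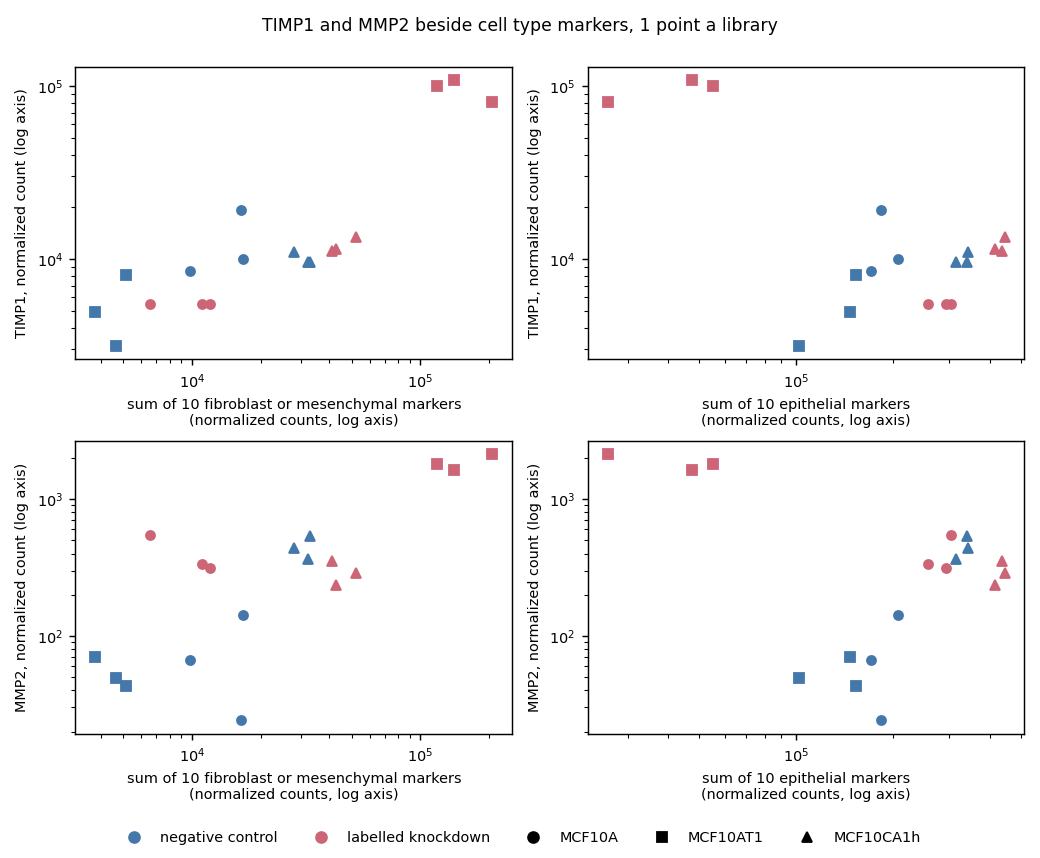
Normalized counts of TIMP1 and MMP2 against the summed normalized counts of 10 fibroblast or mesenchymal markers and of 10 epithelial markers, all axes log, with 1 point per library. The 3 MCF10AT1 labelled knockdown libraries, with fibroblast or mesenchymal sums of 118103 to 206507, hold the 3 highest values of both genes.

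In MCF10A the means of MMP1, MMP10, TIMP1, TIMP2 and TIMP3 were below the control and that of MMP2 above it, but no member passed the threshold in the fit of this line alone. Of 7 members tested, 0 were called by limma, where 2.65% of all genes were called (1.16% as higher and 1.49% as lower), and 5 had an unadjusted p under 0.05, as did 18.4% of all genes. MMP1 and MMP10 passed the filter only through the control, where they were high, and are among those with an unadjusted p under 0.05. Of the 5 other members tested, MMP2, TIMP1 and TIMP3 had such a p-value. With the replicate letter as a block, which the deviations of same-letter libraries allow in this line, MMP2, TIMP1 and TIMP3 of these were called, and 7.60% of all genes. MMP10, tested only through its high control, was called there too. The same genes were called in the joint fit of the 18 libraries, which called 3.84% of all genes. MMP2 and TIMP3 also passed with a pseudocount of 5 (adjusted p = 0.0490 and 0.0478) and without the filter (0.0313 and 0.0288), and TIMP3 with equal sums per library (0.0486).

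MMP2 was at 142, 67.2 and 24.2 normalized counts in the MCF10A negative control and at 548, 337 and 312 in the labelled knockdown. The labelled knockdown lay above the control in each pair of letters and without overlap, at 5.12-fold (log2 difference 2.63, SE 0.57, adjusted p = 0.0576, and 0.00587 with the block). MMP1 was at 9.96, 89.4 and 542 in the control and 11.4, 5.98 and 12.5 in the labelled knockdown. These groups overlapped, since control replicate a was as low as the labelled knockdown (log2 difference -2.95, SE 1.2, adjusted p = 0.235, and 0.0932 with the block). Without that control library the log2 difference was -4.40 (adjusted p = 0.0145). With any other library left out MMP1 was not called (adjusted p up to 0.502).

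The stromelysin MMP10 ran parallel to MMP1 in the MCF10A control, at 18.7, 59.1 and 249 normalized counts, and was at 8.45, 1.02 and 4.02 in the labelled knockdown. The groups did not overlap (log2 difference -3.86, SE 0.94, adjusted p = 0.0771, and 0.0325 with the block). MMP3 was at 4.1, 16.9 and 17.9 in the control and 4.75, 4.42 and 3.53 in the labelled knockdown, under the filter, and MMP9 and MMP13 reached at most 3.62. MMP14 was at 6806, 6416 and 7156 in the control and at 7638, 6730 and 7880 in the labelled knockdown, which overlapped (log2 difference 0.12, SE 0.14, adjusted p = 0.685).

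All 3 inhibitors had lower means in the MCF10A labelled knockdown. TIMP3 was at 3778, 7580 and 11282 normalized counts in the negative control and at 2085, 1361 and 2522 in the labelled knockdown, a ratio of 3.79 without overlap (log2 difference -1.83, SE 0.39, adjusted p = 0.0520, and 0.00974 with the block). TIMP1 was at 10038, 8555 and 19237 in the control and at 5500, 5499 and 5473 in the labelled knockdown (log2 difference -1.11, SE 0.28, adjusted p = 0.0824, and 0.0230 with the block). The 3 labelled knockdown libraries of TIMP1 were nearly equal, and the spread came from control replicate c. TIMP2 was at 2236, 2259 and 2633 and at 1590, 1781 and 2253, which overlapped in 1 library (log2 difference -0.35, adjusted p = 0.320). Control replicate c had the highest MMP1, MMP3, MMP10, TIMP1, TIMP2 and TIMP3 of the 3 MCF10A controls and the lowest MMP2, and control replicate a the lowest MMP1, MMP3, MMP10, TIMP2 and TIMP3. Without control replicate a, MMP2, TIMP1 and TIMP3 were called, and 9.20% of all genes. MMP1 and MMP10, which passed the filter only through the control, were called there too. Each of these 5 members was called in only 1 of 6 fits that left out a library. The fits without any other library called no member, and 0.337% to 1.32% of all genes.

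Marker sums of several cell types also lay apart in MCF10A. The epithelial markers summed to 171531 to 207084 in the control and 256668 to 303822 in the labelled knockdown. Of these 10 only the keratin KRT5 was called (98452 to 103397 and 181908 to 192669 normalized counts, adjusted p = 0.0455), the list median was -0.14, and KRT14 had a log2 difference of -1.76 (adjusted p = 0.0608). The fibroblast or mesenchymal sums overlapped, at 9846 to 16795 and 6536 to 12027. The endothelial sums were 60.1 to 245 and 339 to 536, and the blood sums 745 to 2113 and 284 to 540, with no gene of these 3 lists called and PTPRC at most at 5.31. The higher endothelial sum was that of PECAM1 (15.9 to 196 and 332 to 531, log2 difference 3.13). KDR (-2.72) and TEK (-2.47), the other endothelial markers tested, lay lower, and both passed the filter only through the control. The part of these markers in the values of the members was not tested.

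In MCF10CA1h the inhibitors TIMP2 and TIMP3 and the membrane enzyme MMP14 rose by small amounts with little spread. TIMP2 was at 835, 1055 and 891 normalized counts in the negative control and at 1834, 2103 and 2089 in the labelled knockdown. It was 2.17-fold higher without overlap (log2 difference 1.12, SE 0.12, adjusted p = 2.93e-04). TIMP3 was at 3700, 3652 and 3343 in the control and 5354, 5014 and 5106 in the labelled knockdown, 1.45-fold higher (log2 difference 0.53, SE 0.09, adjusted p = 0.00347). MMP14 was at 5683, 4929 and 5359 and at 6672, 7807 and 6820, 1.33-fold higher (log2 difference 0.41, SE 0.10, adjusted p = 0.0204). In a joint fit of the 18 libraries, which uses the wider spread of the other lines, TIMP2 kept its call, while TIMP3 (adjusted p = 0.640) and MMP14 (adjusted p = 0.350) lost theirs. MMP14 also lost it without an intensity trend (adjusted p = 0.0931) and without control replicate b, control replicate c or labelled knockdown replicate b, where it was up to 0.0763.

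The remaining MCF10CA1h members did not pass the threshold in the fit of this line alone. MMP2 was at 539, 365 and 437 normalized counts in the negative control and at 352, 287 and 237 in the labelled knockdown, without overlap (log2 difference -0.61, SE 0.19, adjusted p = 0.0622). TIMP1 was at 9639, 9580 and 11014 and at 11178, 13373 and 11401 (log2 difference 0.25, SE 0.10, adjusted p = 0.141). MMP1 was at 5.21, 6.84 and 0 in the control and 18.2, 23.3 and 11.2 in the labelled knockdown (log2 difference 2.29, SE 0.79, adjusted p = 0.0884). The low members lay the same way, with MMP3 at 0, 3.23 and 1.55 in the control and 16.8, 15.1 and 19.5 in the labelled knockdown. MMP3 was under the filter and had an adjusted p of 0.0165 without it. MMP10 was at 7.46, 5.14 and 2.20 and at 16.2, 14.9 and 12.9, and MMP9 was at 0.90, 1.77 and 0 and at 4.03, 5.74 and 4.84, also without overlap, with adjusted p-values of 0.189 and 0.145 without the filter. MMP13 was at 3.86, 6.71 and 0 in the control and 14.1, 6.42 and 5.83 in the labelled knockdown, which overlapped. MMP1 passed the filter only through the labelled knockdown, and of the 5 other members tested in this line 3 were called, all higher, where 12.8% of all genes were called, 7.91% higher and 4.85% lower.

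Markers moved in MCF10CA1h as well, a line in which 12.8% of all genes were called. The epithelial markers summed to 314952 to 342972 in the control and 415923 to 445126 in the labelled knockdown, and 3 of 9 tested were called, all higher (KRT14, KRT17 and KRT5, with log2 differences of 2.15, 0.71 and 0.36). The fibroblast or mesenchymal markers summed to 27975 to 33022 and 41173 to 52158, with FN1 (1.92) and DCN (0.87) higher and COL3A1 lower among 8 tested. Of the 2 endothelial markers tested PECAM1 was lower (-1.20), with sums of 110 to 152 and 51.5 to 88.2. Both blood markers tested were called, CD68 higher (1.05) and CD14 lower (-1.14), while their sums overlapped and PTPRC was at most at 1.79. The part of these markers in the values of TIMP2, TIMP3 and MMP14 was not tested.

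**Figure D3:**
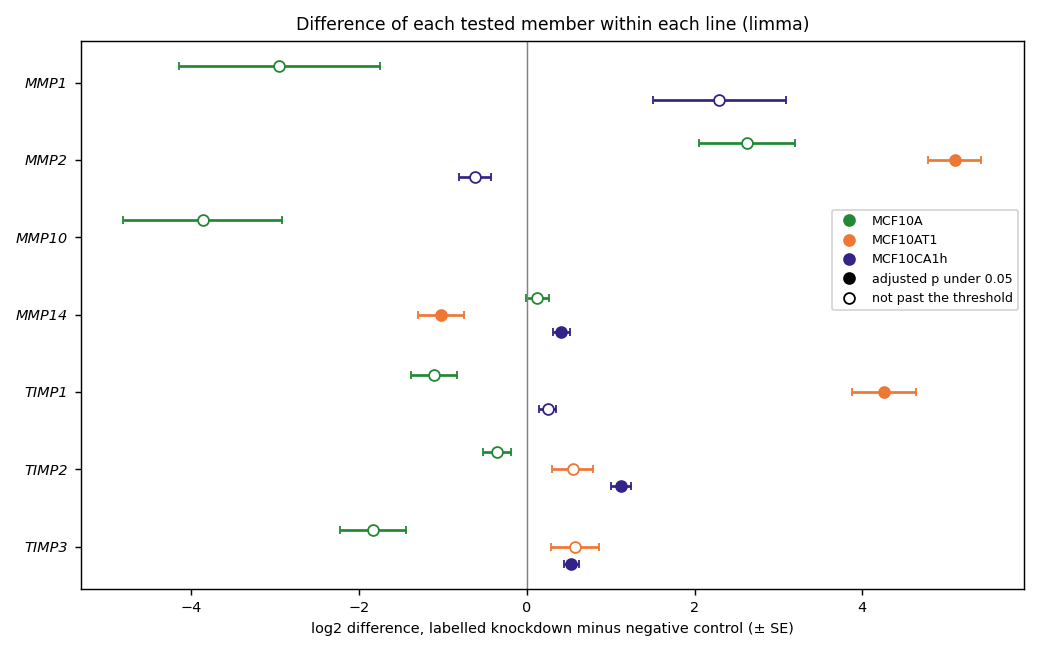
Log2 difference between the labelled knockdown and the negative control of each line with its standard error, for the members tested by limma, filled where the adjusted p was under 0.05. MMP1 of MCF10AT1, whose control is at 0, is left out. TIMP1 and MMP2 of MCF10AT1 lie at 4.26 and 5.10, while the same genes lie at 0.25 and -0.61 in MCF10CA1h.

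Whether the lines differed in these effects was tested by interaction contrasts over the 18 libraries. MMP1 and MMP10 passed the filter of this fit with groups under its mean, and are left out of the counts. MMP10 reached the filter only through the MCF10A control, where it was high. Its tests are given as values only and are no support for a difference between lines. Between MCF10AT1 and MCF10A all 5 other members tested differed, where 21.6% of all genes did. The effect on TIMP1 was higher in MCF10AT1 by 5.37 on the log2 scale (SE 0.42, adjusted p = 1.54e-07), that on MMP2 by 2.48 (SE 0.62, adjusted p = 0.00869) and that on TIMP3 by 2.41 (SE 0.43, adjusted p = 7.10e-04). For TIMP2 it was higher by 0.90 (SE 0.23, adjusted p = 0.00993), and with equal sums per library this last call was lost (adjusted p = 0.112). MMP14 had the only lower effect in MCF10AT1, at -1.15 (SE 0.24, adjusted p = 0.00207). MMP1 and MMP10 had adjusted p-values of 0.0011 and 6.25e-04, and no size is given because a group was listed at 0.

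MCF10CA1h and MCF10A differed in the effect on 3 of the 5, where 5.34% of all genes differed. MMP2 was the only one of the 3 whose effect was lower in MCF10CA1h, by -3.24 (SE 0.62, adjusted p = 0.00561). For TIMP3 the difference was 2.37 (SE 0.43, adjusted p = 0.00392), and for TIMP2 1.47 (SE 0.23, adjusted p = 0.00122). For MMP10, which passed the filter only through the high MCF10A control, the value was 5.37 (SE 1.07, adjusted p = 0.00689). MMP1 differed by 5.24 (SE 1.44, adjusted p = 0.0433), a call kept in 6 of 18 fits that left out a library. The difference for TIMP1 was 1.35 (adjusted p = 0.0764, and 0.0251 with the replicate block). The effects in MCF10CA1h and MCF10AT1 differed for 3 of the 5 members, where 18.2% of all genes differed, namely MMP2 by -5.72 (SE 0.62, adjusted p = 5.29e-06), TIMP1 by -4.01 (SE 0.42, adjusted p = 3.64e-06) and MMP14 by 1.44 (SE 0.24, adjusted p = 3.51e-04). These 3 contrasts share libraries with one another and with the comparisons within the lines.

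The negative controls alone gave the levels of the members along the progression series. MMP1 and MMP10 passed the filter over the 9 controls only through MCF10A, where they were high, and are left out of the counts. Their tests against MCF10A are given as values only and are no support for a difference. From MCF10A to MCF10AT1, 3 of the 5 other members tested were lower and none was higher, where 28.1% of all genes were called. TIMP3 was 11.9-fold lower in MCF10AT1, with 523 to 827 normalized counts against 3778 to 11282 (log2 difference -3.46, SE 0.36, adjusted p = 5.92e-04). MMP14 was 1.80-fold lower (log2 difference -0.88, adjusted p = 0.0133) and TIMP1 2.34-fold lower (log2 difference -1.24, adjusted p = 0.0366), but the TIMP1 call was lost in 6 of 9 fits that left out a library, with an adjusted p up to 0.131, and with the letter as a block (0.0621). The MMP14 call was lost without MCF10A control replicate c (adjusted p = 0.0535). MMP1 and MMP10, both listed at 0 in MCF10AT1, had adjusted p-values of 0.00939 and 0.00222.

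MMP2 distinguished the MCF10CA1h control from both other lines. Its mean was 447 ± 87.8 normalized counts (SD, n = 3) in MCF10CA1h, 77.9 ± 59.7 in MCF10A and 54.0 ± 13.8 in MCF10AT1, so MMP2 was 5.74-fold higher than in MCF10A (log2 difference 2.82, SE 0.54, adjusted p = 0.004) and 8.28-fold higher than in MCF10AT1 (log2 difference 3.04, SE 0.54, adjusted p = 0.00478). TIMP2 was lower in MCF10CA1h than in MCF10A (log2 difference -1.36, adjusted p = 8.48e-04) and MCF10AT1 (log2 difference -1.02, adjusted p = 0.00519). TIMP3 was 5.61-fold higher in MCF10CA1h than in MCF10AT1 (log2 difference 2.52, adjusted p = 0.00152), and 2.12-fold lower than in MCF10A, which was not past the threshold (adjusted p = 0.0615). MMP10 (log2 difference -3.60, adjusted p = 0.0106) and MMP1 (log2 difference -4.48, adjusted p = 0.023) were lower in MCF10CA1h than in MCF10A, through which alone they passed the filter. MMP1 lost its call without MCF10A control replicate b or c or MCF10CA1h control replicate c (adjusted p up to 0.0878). Of the 5 members counted, 2 were called between MCF10CA1h and MCF10A, where 37.8% of genes were, and 3 between MCF10CA1h and MCF10AT1, where 21.8% were. Each group was a single clone, so these differences are between clones of the lines.

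Across the 6 groups, the order of each member showed which neighbours were apart. TIMP1 was highest in the MCF10AT1 labelled knockdown and did not overlap the next group, the MCF10A control, while the lowest groups, the MCF10A labelled knockdown and the MCF10AT1 control, overlapped. MMP2 was highest in the MCF10AT1 labelled knockdown, which lay apart from the next group, the MCF10CA1h control. The MCF10A labelled knockdown followed and overlapped both the MCF10CA1h control above it and the MCF10CA1h labelled knockdown below it. That last group lay apart from the MCF10A control. MMP14 was lowest in the MCF10AT1 labelled knockdown, followed upwards by the MCF10AT1 control and the MCF10CA1h control, each apart from the next. TIMP3 was lowest in the MCF10AT1 control and next lowest in the MCF10AT1 labelled knockdown, the ranges of which lay apart.

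**Figure D4:**
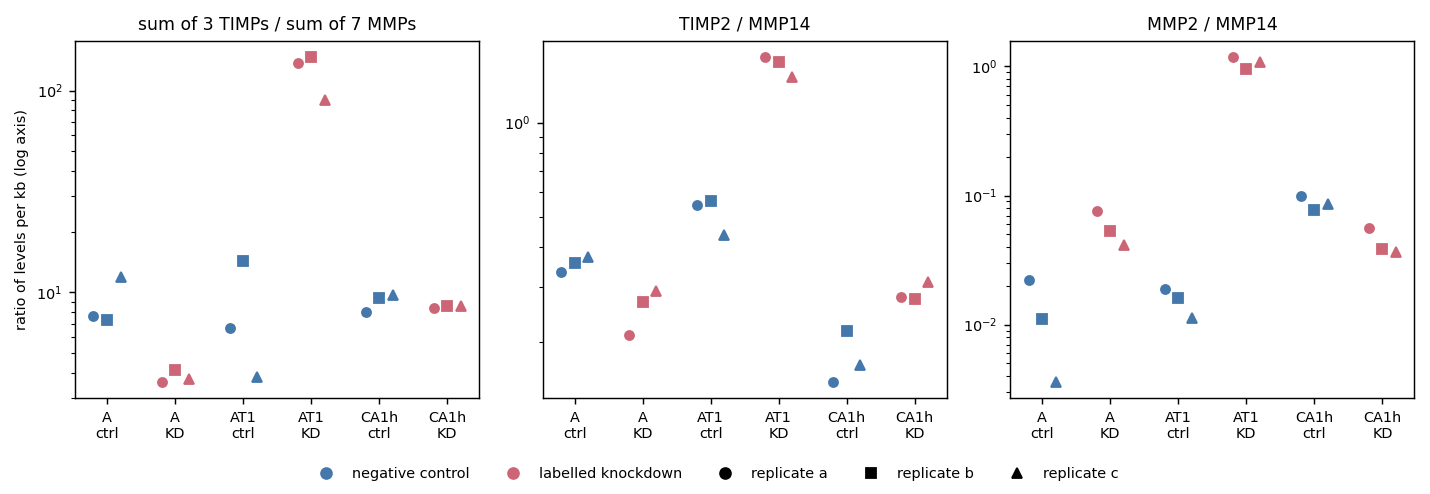
Ratios of levels per kb in each library on log axes, for the summed TIMPs over the summed MMPs, TIMP2 over MMP14, and MMP2 over MMP14. The 3 MCF10AT1 labelled knockdown libraries lie highest in all 3 panels, at 90.1 to 147, 1.40 to 1.62 and 0.96 to 1.18.

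Ratios of levels per kb described the balance of inhibitor and enzyme RNA. The summed TIMPs were 3.79 to 14.3 times the summed MMPs in the MCF10AT1 negative control and 90.1 to 147 times in the labelled knockdown, of which TIMP1 alone made up 99.1% to 99.3% of the TIMPs. In MCF10A the same ratio was 7.27 to 11.9 in the control and 3.60 to 4.13 in the labelled knockdown, and in MCF10CA1h 7.99 to 9.71 and 8.36 to 8.57. TIMP2 over MMP14, the pair that holds proMMP2, was 0.44 to 0.56 in the MCF10AT1 control and 1.40 to 1.62 in the labelled knockdown. It was 0.33 to 0.37 and 0.21 to 0.29 in MCF10A, and 0.15 to 0.22 and 0.27 to 0.31 in MCF10CA1h. MMP14 made up 98.1% to 98.8% of the MMP RNA per kb in the MCF10AT1 control and 45.2% to 50.1% in the labelled knockdown, where MMP2 was at 0.96 to 1.18 times MMP14. These ratios are descriptions of RNA, and enzyme activity was not measured.

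The other genes of the pathway were counted by lists. Of 16 other matrix metalloproteinases, 12 were in the table and 7, 6 and 7 were tested in MCF10A, MCF10AT1 and MCF10CA1h. MMP15, a further membrane-type enzyme, rose in MCF10A (74.3 to 91.9 normalized counts in the control and 252 to 278 in the labelled knockdown, log2 difference 1.67, adjusted p = 0.0124). MMP19 rose in MCF10AT1 (2.39 to 4.84 and 251 to 280, log2 difference 5.77, adjusted p = 2.05e-04) and in MCF10CA1h (37.9 to 58.9 and 107 to 190, log2 difference 1.47, adjusted p = 0.0074), where MMP17 also rose (log2 difference 0.81, adjusted p = 0.0246). In MCF10AT1 MMP19 passed the filter only through the labelled knockdown, where it was high. No other gene of this list was called, where 2.65%, 13.0% and 12.8% of all genes were in the 3 lines. The list medians were -0.19, 0.25 and 0.28 in the 3 lines, against -0.0035, 0.02 and -0.02 over all genes.

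Of the partners in activation and at the cell surface, 3 of 10 tested were called in MCF10A, 4 of 10 in MCF10AT1 and 3 of 9 in MCF10CA1h, against 2.65%, 13.0% and 12.8% of all genes. With the replicate block 6 were called in MCF10A and 7 in MCF10AT1, against 7.60% and 24.5%. PLAT, the tissue plasminogen activator, rose in MCF10A (65.1 to 438 normalized counts in the control and 1635 to 2871 in the labelled knockdown, log2 difference 3.71, adjusted p = 0.0228) and in MCF10AT1 (log2 difference 1.63, adjusted p = 0.0399). PLAUR, the urokinase receptor, fell in MCF10A (log2 difference -1.29, adjusted p = 0.0172) and rose in MCF10AT1 (1.18, adjusted p = 0.0263) and MCF10CA1h (0.58, adjusted p = 0.0144). LCN2, which binds and stabilizes MMP9, fell in MCF10A (106 to 146 and 9.35 to 39.2, log2 difference -2.63, adjusted p = 0.0356) and rose in MCF10CA1h (1.10, adjusted p = 0.013). Integrin ITGB3 rose in MCF10AT1 (0 to 2.60 in the control and 88.0 to 634 in the labelled knockdown, adjusted p = 0.00113), with BSG, the surface inducer of MMPs (log2 difference 1.50, adjusted p = 0.0167), and urokinase PLAU rose in MCF10CA1h (0.57, adjusted p = 0.0116). ITGB3 passed the filter of MCF10AT1 only through the labelled knockdown, and it is counted among the calls of that line.

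Of 15 AP-1, ETS and NF-kB factors that act on MMP promoters, 0 were called in MCF10A, 4 in MCF10AT1 and 2 in MCF10CA1h by limma, where 2.65%, 13.0% and 12.8% of all genes were. With the replicate block 2 were called in MCF10A and 8 in MCF10AT1, where 7.60% and 24.5% of all genes were. The 2 of 15 in MCF10CA1h are near the share over all genes. FOS, a subunit of AP-1, was at 13181 to 34533 normalized counts in the MCF10AT1 control and at 2944 to 8879 in the labelled knockdown (log2 difference -2.55, adjusted p = 0.0174). FOSB (log2 difference -2.50, adjusted p = 0.00877) and JUN (-2.26, adjusted p = 0.00822) fell with it. The other AP-1 genes listed, FOSL1 (0.53), FOSL2 (-1.06), JUNB (-0.09) and JUND (-0.51), were not called there without the block. The part of these factors in the values of the members was not tested. ETV4, an ETS factor of the PEA3 group, rose in MCF10AT1 (1.33, adjusted p = 0.0380). PLAUR and ETV4 of MCF10AT1 were named after their values were seen, as the remaining calls of their lists. ETS1 rose (log2 difference 0.78, adjusted p = 0.0437) and ETV4 fell (-0.36, adjusted p = 0.0416) in MCF10CA1h. Of the other inhibitors and clearance receptors, none of 6 and none of 5 tested were called in MCF10A (1 with the replicate block) and MCF10CA1h by limma. In MCF10AT1 the protease inhibitor SPINT1 fell (log2 difference -1.63, adjusted p = 0.00724) and LRP1, an endocytic receptor that takes up MMP and TIMP complexes, rose (1.22, adjusted p = 0.0464). Of the related metalloproteases, 0 of 9 were called in MCF10A, 2 of 9 in MCF10AT1 and 4 with the block (ADAM8 at -3.25, adjusted p = 0.00247, and ADAMTS1 at 2.43, adjusted p = 0.0316) and 2 of 8 in MCF10CA1h (ADAMTS1 at 2.49, adjusted p = 0.00495, and ADAM19 at 0.99, adjusted p = 0.0205). In MCF10AT1 ADAMTS1 passed the filter only through the labelled knockdown, with controls at 10.5, 5.91 and 9.55. Among the listed genes named here, the calls of MMP19 in both lines, of ITGB3, FOSB, JUN, SPINT1 and ADAM8 in MCF10AT1, and of ADAMTS1 and PLAU in MCF10CA1h held with each library left out. The others were lost in 1 to 5 of 6 such fits, with adjusted p-values up to 0.122 in MCF10A (LCN2), 0.179 in MCF10AT1 (ETV4) and 0.151 in MCF10CA1h (ETV4). In the joint fit of the 18 libraries MMP19 (adjusted p = 0.375) and PLAU (0.709) lost their MCF10CA1h calls. MMP17, PLAUR, LCN2, ETS1, ETV4 and ADAM19 lost theirs in this line in the joint fit and without an intensity trend. Without the trend PLAU (0.0636) also lost its call there. So did PLAT, LCN2 and PLAUR in MCF10A, and PLAT, PLAUR, ETV4 and LRP1 in MCF10AT1.

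Over the 18 libraries, some members varied alike. MMP1 and MMP10, neighbours on chromosome 11, had a Pearson r of 0.87 on the log2 scale, MMP10 and TIMP3 had 0.87, and MMP14 and TIMP1 had -0.73. These values are descriptions over 6 groups of 3, whose points share their line and clone. Among genes with a mean of at least 50, the 3 most like TIMP1 were ACKR1 (r = 0.96), CTSL (0.95) and GLRX (0.95), and the most like MMP2 was RPH3AL (0.94). PLCH2 was the closest to MMP14 (0.99), and the closest to TIMP3 were LCE3D (0.96), MPHOSPH6 (0.95) and PSMD14 (0.94). CDCP1 was closest to MMP1 (0.91), PPP2R2C to MMP10 (0.91) and ARSA to TIMP2 (0.89).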

How the data were processed

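The authors pseudo-aligned the reads with Kallisto 0.46.1, collapsed transcripts to genes by tximport, and applied DESeq2 1.26.0 normalization in R 4.1.1 (hg38). The labels name polyA RNA, while the protocol describes ribosomal RNA depletion, a conflict not settled here. The deposited values, a signal called normalized counts below, are no read counts and are not scaled by length. Only 4.19% to 27.5% of low values lay at whole multiples of the commonest low value (tolerance 0.01), so reads were not recovered, depth per gene is unknown and no count test was run.

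Here, limma 3.58.1 (R 4.3.3, lmFit and eBayes with a trend) was applied to log2(normalized count + 1) wherever the mean over a fit's libraries reached 10, with two-sided p-values adjusted by Benjamini-Hochberg over all genes tested and a threshold of 0.05. A log2 difference on this scale understates changes of low genes. Each line was fitted alone, the 9 negative controls together, and interactions over 18 libraries. The fits were tested on simulated data. Alternatives were pseudocounts of 0.5 and 5, no filter, a mean of at least 50, no trend, equal sums, the replicate letter as a block, a joint fit and each library left out.

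Deviations of same-letter libraries from their group means correlated at r = 0.116 to 0.221 in MCF10A and 0.110 to 0.477 in MCF10AT1, which was taken as pairing, and at -0.0112 to 0.046 in MCF10CA1h, which was not. Libraries of different letters were at most at 0.0087 in MCF10A. In MCF10AT1, control replicate b and labelled knockdown replicate a were at 0.251, above the same-letter pair a at 0.110. The letters thus did not mark pairs cleanly in MCF10AT1, and block values there rest on an uncertain pairing. The letters come from the sample titles. Members, gene lists and the naming rule (all members, METTL3, the 3 largest calls of each list and line, and the 3 genes most like each member) were chosen with earlier results of these data known. One gene that the rule names is not reported here.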

Additional observations from a re-analysis of the deposited data

Results flagged for a closer look

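Effects that differed between lines by the interaction test of limma were set aside for a closer look. Between MCF10AT1 and MCF10A, the effect differed by 5.37 on the log2 scale for TIMP1, 2.48 for MMP2, 2.41 for TIMP3, 0.90 for TIMP2 and -1.15 for MMP14, and with adjusted p-values of 0.0011 for MMP1 and 6.25e-04 for MMP10. Between MCF10CA1h and MCF10A it differed by -3.24 for MMP2, 5.24 for MMP1, 5.37 for MMP10, 1.47 for TIMP2 and 2.37 for TIMP3. MMP10 passed the filter of this fit only through the MCF10A control, where it was high, so its values in both contrasts with MCF10A are no support for a difference. MMP1 was listed at 0 in the MCF10AT1 control and ran from 9.96 to 542 in the MCF10A control. The MMP1 call between MCF10CA1h and MCF10A was kept in 6 of 18 fits that left out a library. Between MCF10CA1h and MCF10AT1 the effect differed by -5.72 for MMP2, -4.01 for TIMP1 and 1.44 for MMP14. In each case 1 clone was compared with 1 clone per line, so the difference between lines cannot be told apart from a difference between clones.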

How the results depend on the processing

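Of 1140 values of members under an alternative, 1047 kept their direction and side of the threshold, 43 lost a call, 43 gained one and 7 turned direction. The values kept include those without the filter of members not tested within a line, which had no main call to be set against. MMP3 of MCF10CA1h (adjusted p = 0.0165 without the filter) is one of them. In MCF10A, where 0 members were called, 2 were called with a pseudocount of 5, 2 without the filter, 1 with equal sums, 4 with the replicate block, 4 in the joint fit, and 0 to 5 with a library left out. The counts with the block, in the joint fit and without control replicate a include MMP10, and the last also MMP1, which both passed the filter through the high control. In MCF10CA1h, 3 calls became 5 with the block and 1 in the joint fit, and 2 to 4 with a library left out. The letters were not taken as pairs there, and the block called MMP1 (adjusted p = 0.0496) and MMP2 (0.035) in addition. In MCF10AT1, 4 calls became 2 to 4 with a library left out, and the joint fit called TIMP2 (adjusted p = 0.0171) and MMP10, which passes the filter there, in addition. With MMP1 and MMP10 counted, the 7 differences between MCF10AT1 and MCF10A became 6 to 7 with a library left out, the 5 between MCF10CA1h and MCF10A 3 to 6 (and 3 with a mean of at least 50, which leaves out low genes), and the 3 between MCF10CA1h and MCF10AT1 3 to 4. For the controls these counts were 3 to 5 for MCF10AT1 against MCF10A, 3 to 5 for MCF10CA1h against MCF10A and 3 to 4 for MCF10CA1h against MCF10AT1 (6 in the joint fit). The values that turned direction were not called in either form: the difference of effects between MCF10CA1h and MCF10AT1 became 0.24 for MMP10 with a pseudocount of 5 and 0.063 for TIMP3 with equal sums, and ran from -0.246 to 0.084 for TIMP3 with a library left out. In the controls MMP2 ran from -0.87 to 0.38 between MCF10AT1 and MCF10A and TIMP1 from -0.47 to 0.12 between MCF10CA1h and MCF10A. The cause was not tested. Equal sums moved the median of all genes in MCF10AT1 from 0.02 to -0.15. The block changed no other call of a member within MCF10A and MCF10AT1. Low values of MMP1, MMP3, MMP9, MMP10 and MMP13 limit what can be said of them.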
